A study of Mus musculus with 17 samples.

Results

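The mouse mitochondrial genome was represented by 37 genes, taken as every row of the per-sample tables whose gene name begins with lower-case mt-. They are 13 mRNAs, 2 rRNAs and 22 tRNAs, out of 78298 genes in each table. RNA was measured as TPM, a length-normalised level scaled to a total of 1000000 in each library, in brainstem tissue labelled locus coeruleus from male C57BL/6 mice. The groups were 5 libraries from mice that received vindeburnol, 6 from mice that received VB-127 and 6 from controls that were left untreated. Vindeburnol is a synthetic compound related to vinca alkaloids, and VB-127 is a code name that the labels explain only as a derivative of it. Each compound was given in water through an oral cannula at a daily dose of 20 mg/kg on 5 days, and tissue was collected 24 hours after treatment. By its title, the study looks for the molecular target of the compounds. No group had the gavage alone, so in every comparison with controls the compound and the gavage cannot be told apart. Age and substrain are not given in the sources used here, and whether each library is a different mouse is not stated, so p-values measure the spread between these samples.

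The mitochondrial genome is a small circular DNA that encodes core subunits of respiratory complexes I, III and IV and of ATP synthase, along with the rRNAs and tRNAs that translate them inside the organelle. Its strands are transcribed as long precursors, which are cut largely at the tRNAs, and most of the mature mRNAs then gain a short poly(A) tail. The other subunits of the respiratory chain come from nuclear genes, and neurons depend on the complete chain for the ATP that firing and transmitter release consume. In human cells the mRNA of the mt-Nd6 counterpart is known to lack a tail, and mature tRNAs have none. The libraries were made from poly(A)-selected RNA, so levels of mt-Nd6 and of the tRNAs are levels of what passed that selection.

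In the GENCODE M21 annotation of GRCm38, all 37 genes were found, 28 on the + strand and 9 on the - strand, with mt-Nd6 the 1 mRNA on the - strand. The files were made on GRCm39, so coordinates are not given. Neighbouring genes overlap in places, and reads from the shared bases can be counted for either gene. The bicistronic pairs are shown for this reason, with the shared bases in capitals and the sequences taken from the GENCODE M21 transcripts. mt-Atp8, an ATP synthase subunit of 204 bases, shares its last 43 bases with mt-Atp6. mt-Nd4l, a complex I subunit of 297 bases, shares its last 7 bases with mt-Nd4.
mt-Atp8: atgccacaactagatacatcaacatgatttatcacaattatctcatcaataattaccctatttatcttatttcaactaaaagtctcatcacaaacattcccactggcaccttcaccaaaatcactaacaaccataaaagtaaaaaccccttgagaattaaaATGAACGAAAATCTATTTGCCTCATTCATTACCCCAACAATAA
mt-Nd4l: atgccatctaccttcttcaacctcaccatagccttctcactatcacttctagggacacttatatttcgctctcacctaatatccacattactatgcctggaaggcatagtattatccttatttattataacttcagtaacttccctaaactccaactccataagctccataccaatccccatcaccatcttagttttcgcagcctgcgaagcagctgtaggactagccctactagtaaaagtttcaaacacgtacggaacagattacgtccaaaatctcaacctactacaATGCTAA

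Nuclear genomes also carry inserted copies of mitochondrial DNA, and 7 of the 13 mRNAs had such a copy with at least 99% identity over at least 200 aligned bases. All 7 copies are unprocessed pseudogenes on chromosome 1 in GENCODE M21. The copies of mt-Co2 (Gm28661, 681 aligned bases), mt-Atp6 (Atp6-ps, 678), mt-Co3 (Gm28437, 783), mt-Nd4 (Gm28439, 876 of 1378) and mt-Nd4l (Gm10222, 294) had no mismatch. Gm29216 matched 483 of the 1545 bases of mt-Co1 with 1 mismatch, and Gm28438 matched 345 of the 348 bases of mt-Nd3 with 1 mismatch. The first 120 bases of the mt-Nd3 pair are printed because its values are compared between groups below. No such difference reached a limma adjusted p under 0.05. The differing base is in capitals and is T3C, with positions counted from 1 at the 5′ end of mt-Nd3. Elsewhere in the aligned stretch the sequences are the same, so a read that misses this base matches both genes equally.
mt-Nd3: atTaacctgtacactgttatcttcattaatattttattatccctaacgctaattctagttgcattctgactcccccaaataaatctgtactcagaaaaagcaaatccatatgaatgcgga
Gm28438: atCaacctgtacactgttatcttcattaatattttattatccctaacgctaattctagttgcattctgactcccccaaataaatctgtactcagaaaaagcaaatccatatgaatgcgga

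A read from an identical stretch can be assigned to either gene, and the deposited files listed high TPM for most of the copies. Mean TPM over the 17 libraries was 9776 for Gm28661, 6746 for Gm28437, 5147 for Atp6-ps, 2555 for Gm10222, 2219 for Gm29216, 1955 for Gm28438 and 74.9 for Gm28439. Whether these copies are transcribed was not tested, and all values of these 7 mRNAs are uncertain to that extent. Each group comparison of these 7 mRNAs is therefore given as deposited and with the copy summed in, weighted by length. A further 11 nuclear matches, at 90% to 99% identity, had a mean of at most 5.62 TPM. Atp6-ps also matched the last 43 of the 204 bases of mt-Atp8 without mismatch. That match was too short to count as a copy here, so mt-Atp8 was not summed with it. Reads from those 43 bases can be assigned to Atp6-ps, and values of mt-Atp8 are uncertain to that extent.

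Some facts of the whole series touch these values. Read depth is not known from TPM, and each library listed 21016 to 26993 genes above 0. Bc1, a short non-coding RNA of neurons, took between 16.1% and 35.3% of the TPM total, and what it takes lowers the share left to every other gene. The noradrenergic markers that define the locus coeruleus were near 0 in many libraries. Dbh had a median of 1.08 TPM and a maximum of 18.9 TPM, and Slc6a2, the noradrenaline transporter, had a median of 0.300 TPM and was at 0 in 4 libraries. Phox2a was at 0 in 11 libraries, and Th, which dopaminergic neurons also use, had a median of 74.5 TPM. The summed noradrenergic markers spanned 29.2 to 98.8 TPM after vindeburnol, 35.7 to 154 TPM after VB-127 and 47.5 to 118 TPM in controls. That sum depends strongly on Th and does not measure noradrenergic neurons alone. In VB-127 replicate 1, where it was highest, Th alone was 154 TPM and Dbh and Slc6a2 were at 0. The dopaminergic marker Slc6a3 was also highest there, at 124 TPM. Control replicate 1 had the highest Dbh, 18.9 TPM, and the lowest Th, 17.8 TPM. In bulk tissue, fewer cells of a type and less RNA per cell cannot be told apart.

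Mitochondrial transcripts together made up about the same share of the TPM total in the 3 groups. In the vindeburnol libraries the 37 genes held 13.1%, 11.6%, 9.87%, 10.4% and 9.78% of the total. In the VB-127 libraries they held 10.7%, 8.84%, 10.8%, 12.0%, 12.6% and 12.3%. In the control libraries they held 12.9%, 10.3%, 12.3%, 8.59%, 10.1% and 14.8%. The means were 10.95% ± 1.41 after vindeburnol (SD, n = 5), 11.2% ± 1.39 after VB-127 (SD, n = 6) and 11.5% ± 2.24 in controls (SD, n = 6), so the group means lie closer together than the libraries of any group. The control libraries had both the highest share, in replicate 6, and the lowest, in replicate 4. Control replicate 6 had the highest level of 10 of the 13 mRNAs, and control replicate 4 had the lowest level of 9 of them. Control replicate 4 also had the highest Bc1 share, 35.3%.

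**Figure D1:**
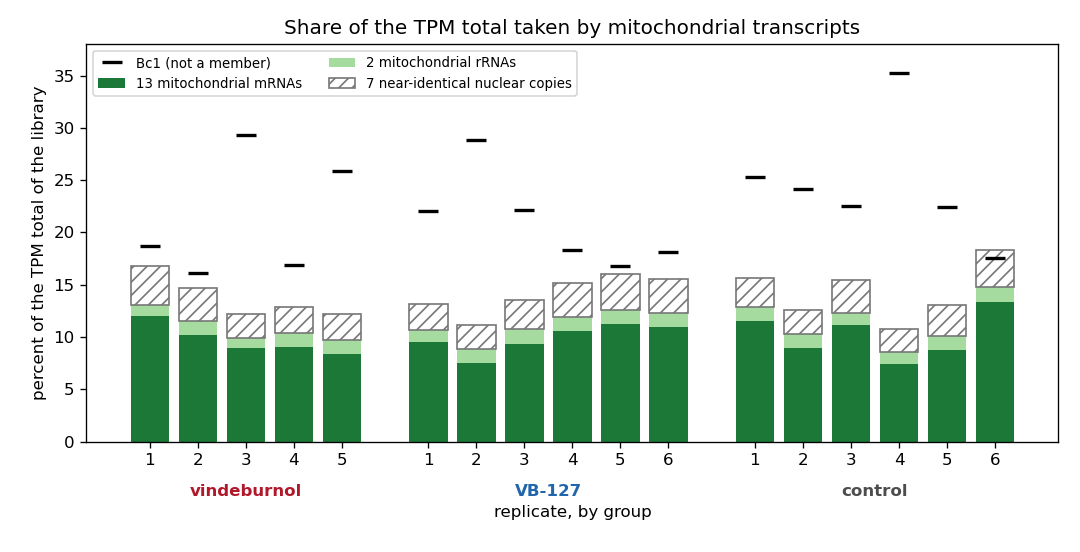
Percent of the TPM total of each library taken by the 13 mitochondrial mRNAs, the 2 rRNAs and their 7 near-identical nuclear copies (stacked bars, from 0), with the share of Bc1 as a dash; tRNAs are too low to draw. The bars of the 3 groups overlap, with both the tallest and the shortest bar among the controls, and control replicate 4 has the highest Bc1 share and the lowest mitochondrial share.

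The mRNAs carried most of this share. They held 9.72% ± 1.43 after vindeburnol (SD, n = 5), 9.86% ± 1.37 after VB-127 (SD, n = 6) and 10.2% ± 2.20 in controls (SD, n = 6). The rRNAs held 1.21% ± 0.208 after vindeburnol, 1.32% ± 0.0957 after VB-127 and 1.30% ± 0.109 in controls. With Bc1 left out of the total, the share of all 37 genes was 13.9% ± 1.36 after vindeburnol, 14.1% ± 1.02 after VB-127 and 15.2% ± 2.14 in controls. The spread over the 17 libraries was then 1.44-fold from lowest to highest, against 1.72-fold with Bc1 counted. The 7 nuclear copies held a further 2.82% ± 0.595 after vindeburnol, 2.91% ± 0.463 after VB-127 and 2.80% ± 0.527 in controls. With the copies added in, the share was 13.8% ± 2.00 after vindeburnol, 14.1% ± 1.84 after VB-127 and 14.3% ± 2.70 in controls. No difference of either compound from controls in these shares exceeded the SD of the control libraries.

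Within the mRNAs as deposited, with no copies added, the division among respiratory complexes was also alike. Subunits of complex IV, which passes electrons to oxygen, took 41.3% ± 2.29 of the summed mRNA TPM after vindeburnol, 41.7% ± 1.87 after VB-127 and 41.2% ± 3.35 in controls. Subunits of complex I, the entry point for electrons from NADH, took 28.4% ± 1.14 after vindeburnol, 28.2% ± 1.16 after VB-127 and 29.1% ± 1.76 in controls. The ATP synthase subunits took 22.4% ± 1.28 after vindeburnol, 22.2% ± 0.799 after VB-127 and 22.1% ± 1.64 in controls. Complex III is encoded here by mt-Cytb alone, which took 7.81% ± 0.605 after vindeburnol, 7.79% ± 0.201 after VB-127 and 7.57% ± 0.380 in controls.

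Mitochondrial RNAs were among the most abundant RNAs of the tissue. The 20 genes with the highest mean TPM included 12 of the 37 mitochondrial genes, both rRNAs among them, and 3 of the nuclear copies. Levels per length nevertheless differed widely between mitochondrial mRNAs. As deposited, mt-Co1, the catalytic subunit of complex IV, was highest, with 16827 ± 2304 TPM after vindeburnol, 17936 ± 3206 TPM after VB-127 and 17060.5 ± 3860.3 TPM in controls. With copies summed in, mt-Co2 was higher than mt-Co1. The mean sums of mt-Co2 were 23339 TPM after vindeburnol, 22618 TPM after VB-127 and 23055 TPM in controls. Those of mt-Co1 were 17465, 18749 and 17719 TPM. mt-Co2, which holds the copper site that receives electrons from cytochrome c, had 13358 ± 1202 TPM after vindeburnol, 12494 ± 1017 TPM after VB-127 and 13919 ± 1835 TPM in controls. mt-Co3, the third core subunit of that complex, had 9723 ± 872 TPM after vindeburnol, 10521 ± 949 TPM after VB-127 and 10454 ± 987 TPM in controls. As deposited, mt-Co2 and mt-Co3 were the steadiest of the mRNAs, with a coefficient of variation over the 17 libraries of 11.0% and 9.27%.

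Of the ATP synthase subunits, mt-Atp6, part of the proton channel, had 9704 ± 2417 TPM after vindeburnol, 9296 ± 969 TPM after VB-127 and 9975 ± 2006 TPM in controls. Its overlapping neighbour mt-Atp8 had 12216 ± 2209.8 TPM after vindeburnol, 12697 ± 3476 TPM after VB-127 and 12782 ± 4232 TPM in controls. mt-Cytb, which hands electrons through complex III, had 7639 ± 1629 TPM after vindeburnol, 7696 ± 1203 TPM after VB-127 and 7748 ± 1846 TPM in controls. In each of these genes the SD of a group was larger than any difference between group means.

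The 7 complex I subunits spanned the widest range of levels, all of them in the membrane arm of the enzyme. mt-Nd1 was the highest, with 10099 ± 1613 TPM after vindeburnol, 9562 ± 1242 TPM after VB-127 and 10458 ± 2309.7 TPM in controls. mt-Nd2 had 4785 ± 999 TPM after vindeburnol, 4954 ± 975 TPM after VB-127 and 5257 ± 1659 TPM in controls. mt-Nd4 had 5676 ± 876 TPM after vindeburnol, 5788 ± 949 TPM after VB-127 and 5774 ± 1717 TPM in controls. mt-Nd2 and mt-Nd4 encode 2 of the antiporter-like subunits thought to move protons, and mt-Nd5 encodes the third. mt-Nd5 had 1929.7 ± 407 TPM after vindeburnol, 2042 ± 554 TPM after VB-127 and 1930.1 ± 802 TPM in controls. mt-Nd4l had 2105 ± 894 TPM after vindeburnol, 2021 ± 749 TPM after VB-127 and 2003 ± 894 TPM in controls.

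mt-Nd6, the mRNA on the - strand, was the lowest of the 13 in every group. It had 214 ± 52.5 TPM after vindeburnol, 224 ± 48.0 TPM after VB-127 and 234 ± 60.3 TPM in controls. The groups overlapped throughout. Its neighbour mt-Nd5 lies on the opposite strand with 14 shared bases. As deposited, mt-Nd5 was the next lowest by mean over the 17 libraries, at 1969 TPM, followed by mt-Nd4l at 2039 TPM and mt-Nd3 at 3561 TPM. The deposited levels of mt-Nd5 and mt-Nd4l lie within each other's spread. Summed with its copy, mt-Nd4l had means of 4323 TPM after vindeburnol, 4691 TPM after VB-127 and 4650.5 TPM in controls. For mt-Nd3 these were 5226, 4930 and 6295 TPM. mt-Nd5, mt-Nd4l and mt-Nd3 thus kept their order with copies summed in. The mt-Nd3 sum was above mt-Nd2 after vindeburnol and in controls, so the gaps and the place of mt-Nd3 depend on how reads were divided.

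**Figure D2:**
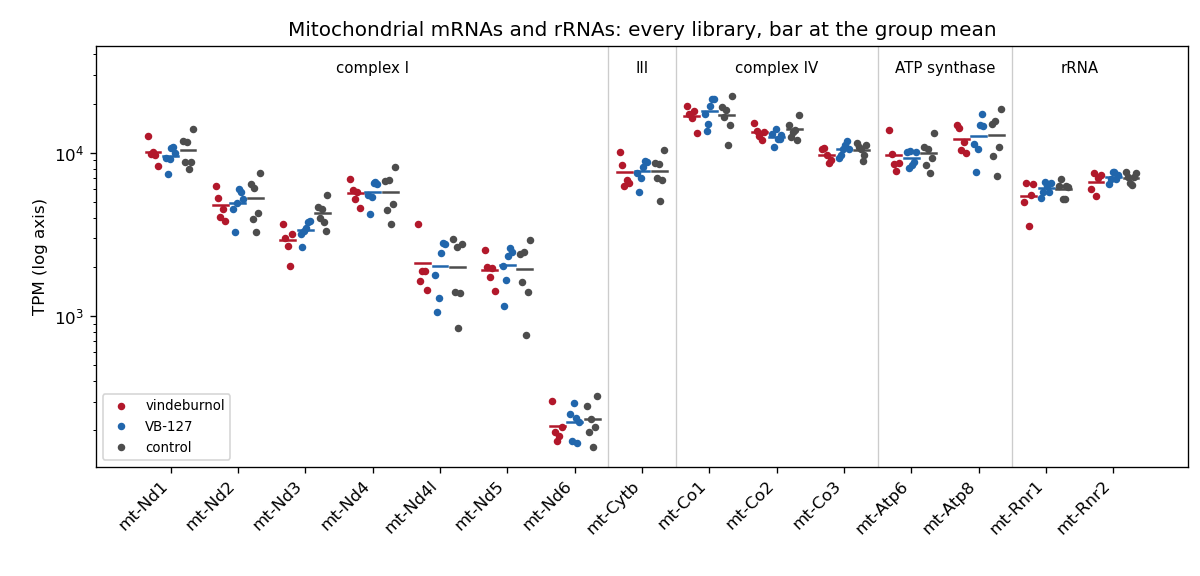
TPM (log axis) of the 13 mRNAs, by respiratory complex, and the 2 rRNAs in each library; each point is 1 library, each short bar the mean of a group, with vindeburnol, VB-127 and control from left to right. Group means of most genes sit within the spread of the points; for mt-Nd3 they are 2918, 3359 and 4299 TPM.

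The rRNAs form the 2 subunits of the mitochondrial ribosome. mt-Rnr1, of the small subunit, had 5022, 6509, 3542, 5536 and 6464 TPM after vindeburnol, 5320.4 to 6645 TPM after VB-127 and 5228 to 6950.5 TPM in controls. mt-Rnr2, of the large subunit, had 5966, 7498, 5470.2, 7022 and 7296 TPM after vindeburnol, 6424 to 7620.0 TPM after VB-127 and 6359 to 7625 TPM in controls. Vindeburnol replicate 3 was the lowest library for both, and the other vindeburnol libraries lay in or near the range of the other groups. That library also had the highest sum of 4 cerebellar markers, 52.2 TPM, against at most 26.2 TPM after VB-127 and 26.4 TPM in controls. Its Bc1 share was 29.3%. The part of tissue content and Bc1 in its rRNA levels was not tested. The log2 difference for mt-Rnr1 was -0.18 between vindeburnol and controls (95% interval -0.44 to 0.09, limma adjusted p = 0.723) and 0.01 between VB-127 and controls (95% interval -0.24 to 0.26, adjusted p = 0.971).

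Group differences were tested for each gene with limma on log2(TPM + 1), with the p adjusted over all 16153 genes that reached 1 TPM in at least 5 libraries. All 13 mRNAs, both rRNAs and 9 of the 22 tRNAs reached that level. None of these 24 genes was called at an adjusted p under 0.05 in any of the 3 comparisons. Over all genes, 0.0% were called for vindeburnol against controls, 0.00619% (1 gene) for VB-127 against controls and 0.0% between the compounds. At an unadjusted p under 0.05, 1 member was lower after vindeburnol than in controls, where 1.22% of all genes were lower and 6.95% higher. In VB-127 against controls, 1 member was lower and 1 higher, where 0.532% of all genes were lower and 9.67% higher. In vindeburnol against VB-127, 2 members were lower, where 2.49% of all genes were lower and 0.891% higher. The lower gene in both comparisons with controls, which share the 6 control libraries, was mt-Nd3. The others were tRNAs, and 2 of them, mt-Tq and mt-Tp, passed the filter only through the VB-127 libraries.

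The medians over the 13 mRNAs were close to 0. The median log2 difference was -0.04 between vindeburnol and controls, 0.01 between VB-127 and controls, and -0.03 between vindeburnol and VB-127. Over all genes tested it was 0.08 between vindeburnol and controls, 0.11 between VB-127 and controls, and -0.03 between the compounds. With mt-Nd3 set aside, the differences of the other 14 mRNAs and rRNAs between vindeburnol and controls ran from -0.18 for mt-Rnr1 to 0.13 for mt-Nd4l. Between VB-127 and controls they ran from -0.15 for mt-Co2 to 0.16 for mt-Nd5. Between vindeburnol and VB-127, given at the same dose and time, they ran from -0.19 for mt-Rnr1 to 0.10 for mt-Co2. The intervals allow larger differences, the widest between the compounds being -0.73 to 0.87 for mt-Nd4l, so the compounds are not shown to act alike.

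**Figure D3:**
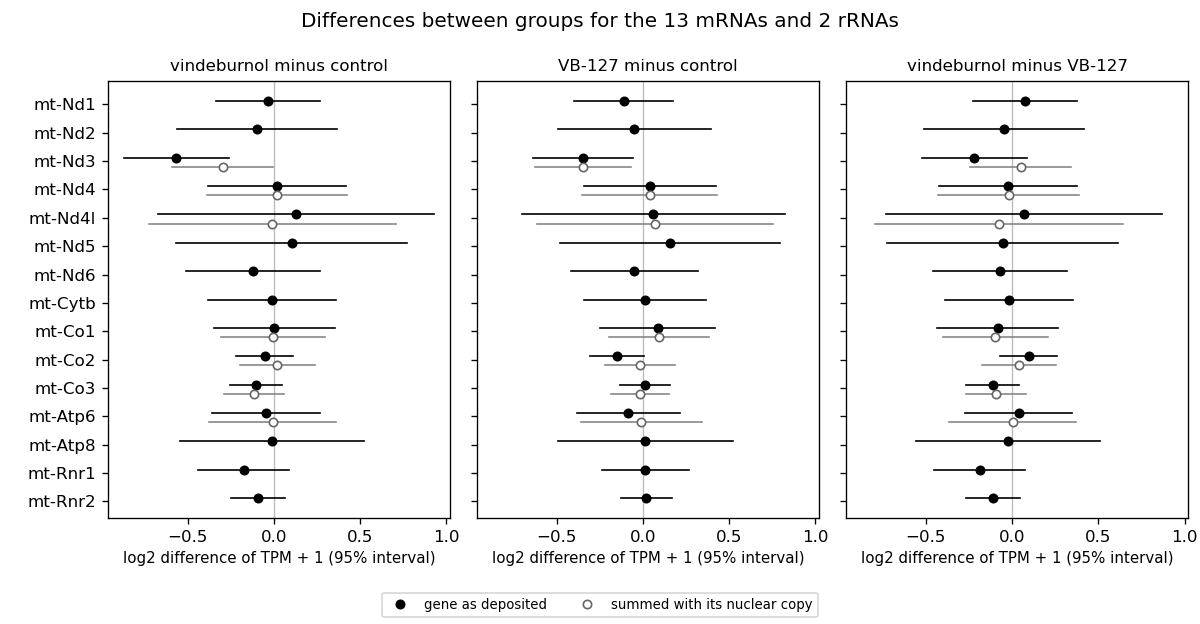
Log2 differences of TPM + 1 with 95% intervals for the 13 mRNAs and 2 rRNAs in the 3 comparisons; filled points are the genes as deposited, and open points are the same genes with the nuclear copy summed in. Most intervals include 0; those of mt-Nd3 against controls do not, at -0.57 after vindeburnol and -0.35 after VB-127, and its open point lies closer to 0 after vindeburnol.

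mt-Nd3, a small membrane subunit of complex I, was lower after either compound than in controls in TPM, without passing the adjusted threshold. It had 3682, 3009, 2674, 2029 and 3196 TPM after vindeburnol. It had 3174, 2635, 3328, 3440.0, 3748 and 3826 TPM after VB-127. The control libraries had 4626, 3963, 4559, 3778, 3315 and 5551 TPM. The vindeburnol libraries overlap the controls through control replicate 5 at 3315 TPM, and the VB-127 libraries do so through control replicates 4 and 5. The means were 2918 ± 616 TPM after vindeburnol (SD, n = 5), 3359 ± 432 TPM after VB-127 (SD, n = 6) and 4299 ± 787 TPM in controls (SD, n = 6). The log2 difference from controls was -0.57 after vindeburnol (SE 0.14, 95% interval -0.87 to -0.26, limma adjusted p = 0.425). It was -0.35 after VB-127 (SE 0.14, 95% interval -0.64 to -0.06, limma adjusted p = 0.470). Between vindeburnol and VB-127 it was -0.22 (95% interval -0.53 to 0.09, adjusted p = 0.9999), an interval that includes 0 and does not show that the compounds act alike.

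mt-Nd3 was also set against the pool of mitochondrial mRNAs, which puts aside a level that they share. It made up 3.07%, 2.96%, 2.98%, 2.23% and 3.81% of the summed TPM of the 13 mRNAs after vindeburnol. It made up 3.34%, 3.49%, 3.56%, 3.25%, 3.33% and 3.51% after VB-127, against 4.02%, 4.44%, 4.09%, 5.10%, 3.78% and 4.15% in controls. All VB-127 libraries lay below all control libraries, while 1 vindeburnol library, replicate 5, lay above the lowest control. On this scale 0.0124% of all genes were lower without overlap in VB-127 than in controls. The share higher without overlap is not given here. This scale moved the whole table upward after VB-127, with a median log2 difference over all genes of 0.14. At an unadjusted limma p under 0.05, 11.6% of genes were higher and 0.332% lower, so a small lower share says little about mt-Nd3. The log2 differences on this scale were -0.52 after vindeburnol (adjusted p = 0.290) and -0.31 after VB-127 (adjusted p = 0.366).

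The values of the nuclear copy bear directly on the difference after vindeburnol. Gm28438 had 3852, 2793, 1696, 1959 and 1338 TPM after vindeburnol, 1158, 1672, 1780.3, 1544, 1621 and 1736 TPM after VB-127 and 1988, 2315, 1929, 1584, 2118 and 2145 TPM in controls. It was thus high in vindeburnol replicates 1 and 2. The mitochondrial gene received 48.9% and 51.9% of the pair's TPM there, without weights by length. Over the groups that share was 56.7% ± 9.07 after vindeburnol, 67.9% ± 4.18 after VB-127 and 67.8% ± 4.57 in controls. Summed with its copy, mt-Nd3 had 7501, 5778, 4356, 3971 and 4522 TPM after vindeburnol. The sum was 4322, 4293, 5093, 4971, 5355 and 5546 TPM after VB-127, against 6597, 6258, 6472, 5348, 5415 and 7678 TPM in controls. The log2 difference of the sum from controls was -0.30 after vindeburnol (95% interval -0.59 to -0.01, limma adjusted p = 0.606). After VB-127 it was -0.35 (95% interval -0.63 to -0.07, limma adjusted p = 0.469), the same as for mt-Nd3 alone. Between the compounds the sum turned the direction, to 0.05 (95% interval -0.24 to 0.34, adjusted p = 0.9999).

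As a share of the 13 mRNAs with all copies added, the mt-Nd3 sum was 4.17% ± 0.534 after vindeburnol, 3.95% ± 0.368 after VB-127 and 4.98% ± 0.553 in controls. The VB-127 libraries, from 3.63% to 4.46%, again lay below all control libraries, from 4.57% to 5.72%. The vindeburnol libraries, from 3.43% to 4.84%, overlapped them. On that scale 0.0248% of all genes were lower without overlap in VB-127 than in controls, and the share higher without overlap is not given here. For the other 6 mRNAs with a copy, the summed differences ran from -0.11 to 0.02 between vindeburnol and controls, from -0.02 to 0.09 between VB-127 and controls, and from -0.10 to 0.04 between the compounds.

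**Figure D4:**
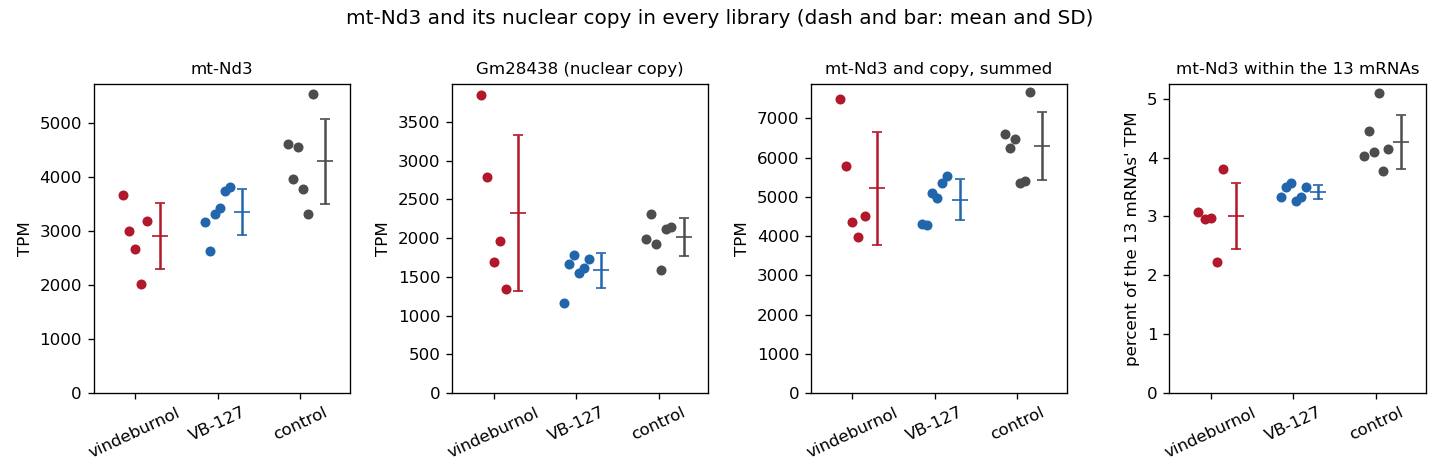
mt-Nd3, its nuclear copy Gm28438 and their length-weighted sum in TPM, and mt-Nd3 as a percent of the TPM of the 13 mRNAs, all from 0; points are libraries, dashes and bars the mean and SD of each group (n = 5, 6 and 6). In the last panel the VB-127 points, 3.25% to 3.56%, lie below the control points, 3.78% to 5.10%, and in the second the vindeburnol points spread from 1338 to 3852 TPM.

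Levels of other RNAs also differed between the groups in which mt-Nd3 was compared, none of them past the adjusted threshold. The counts that follow are at an unadjusted p under 0.05, where 6.95% of all genes were higher and 1.22% lower after vindeburnol than in controls, and 9.67% were higher and 0.532% lower after VB-127. The summed TPM of 6 RNAs kept in the nucleus, among them Malat1 and Meg3, ran from 1082 to 2180 after vindeburnol, from 1586 to 1997 after VB-127 and from 464 to 1640 in controls. Of the 6, 1 was higher after vindeburnol and 3 after VB-127, with median log2 differences of 0.43 and 0.84. The summed erythrocyte markers, haemoglobin genes and Alas2, ran from 1411 to 2525 TPM after vindeburnol, from 1539 to 2346 TPM after VB-127 and from 896 to 2042 TPM in controls. Of those 5, 3 were higher after vindeburnol and 2 after VB-127.

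Markers of the cell types in the tissue differed in both directions. Of 6 astrocyte markers, 1 was higher and 1 lower after vindeburnol, and 1 was lower after VB-127. Gfap, an astrocyte filament protein, was the lower gene in both, with 95.5 ± 18.4 TPM after vindeburnol, 111 ± 27.9 TPM after VB-127 and 144 ± 32.9 TPM in controls. Aldh1l1, a folate enzyme of astrocytes, was the higher one, with 58.6 ± 7.29 TPM after vindeburnol and 44.9 ± 3.06 TPM in controls. Of 6 oligodendrocyte markers, none reached that p after vindeburnol and 3 (Mag, Mog and Cnp) were higher after VB-127. The 3 serotonergic markers were lower in value after both compounds, with median log2 differences of -0.96 and -1.06, and none reached an unadjusted p under 0.05. Their sum varied widely between libraries, from 1.83 TPM in VB-127 replicate 1 and 11.3 TPM in vindeburnol replicate 1 to 202 TPM. The sum of 3 dopaminergic markers ran from 3.53 to 133 TPM, with median log2 differences from controls of -0.002 and 0.50. Of the noradrenergic markers 2 were tested, and Dbh was lower after both compounds. Dbh, the enzyme that makes noradrenaline, ran from 0 to 1.72 TPM after vindeburnol, from 0 to 2.36 TPM after VB-127 and from 0.290 to 18.9 TPM in controls, where replicates 1 and 6 were highest. Th, which acts earlier in the same synthesis, had 61.4 ± 28.9 TPM after vindeburnol, 85.3 ± 39.4 TPM after VB-127 and 71.1 ± 32.1 TPM in controls, with log2 differences from controls of -0.16 and 0.31. Of 8 neuronal markers 1 was higher after either compound, and of 6 microglial and 5 endothelial markers 1 each was lower after vindeburnol and none reached that p after VB-127. Without control replicates 1 and 6 the mt-Nd3 difference from controls was -0.44 after vindeburnol and -0.22 after VB-127, against -0.57 and -0.35 with them. Those libraries also had the highest mt-Nd3 of the controls, 4626 and 5551 TPM. Leaving them out therefore had to make the difference smaller, and this fit cannot link it to Dbh. The part of these RNAs in the mt-Nd3 difference was not tested.

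How a pair was divided varied from library to library for most genes with a copy. The percents below are of the plain sum of the TPM of gene and copy, not weighted by length. For mt-Nd4 and mt-Co1, whose copies are shorter than the gene, they are lower than length-weighted percents would be. The mitochondrial gene received 97.7% to 99.5% of the mt-Nd4 pair and 77.8% to 97.4% of the mt-Co1 pair over the 17 libraries. It received 54.1% to 73.5% of the mt-Atp6 pair, 55.8% to 65.3% of the mt-Co3 pair and 50.4% to 68.0% of the mt-Co2 pair. For mt-Nd4l, identical to Gm10222 over 294 of its 297 bases, the share ran from 33.2% to 78.0%. mt-Nd4l had the largest coefficient of variation of the 15 mRNAs and rRNAs, 38.8%. Its highest library, vindeburnol replicate 1 at 3668 TPM, was also the library in which Gm10222 was lowest, at 1032 TPM. Their length-weighted sum there, 4689.9 TPM, lay inside the range of the other vindeburnol libraries, 2732 to 5016 TPM.

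**Figure D5:**
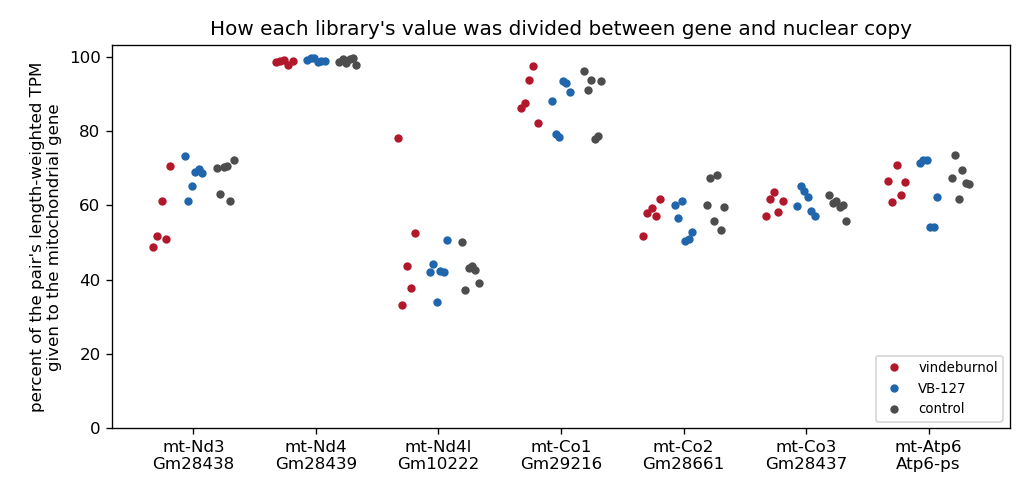
Percent of the summed TPM of each gene and nuclear copy that was given to the mitochondrial gene, for 7 pairs. The values are not weighted by length, although the axis label says so. Each point is 1 library, with vindeburnol, VB-127 and control from left to right. The mt-Nd4 pair stays at 97.7% to 99.5%, while the mt-Nd4l pair runs from 33.2% to 78.0%.

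The tRNAs were low and irregular in these poly(A)-selected libraries. Of the 22, 5 were at 0 in every library (mt-Tf, mt-Ty, mt-Tg, mt-Tr and mt-Tt), and 13 did not reach the level for testing. The summed TPM of the 22 was 257, 52.0, 45.5, 779 and 181 after vindeburnol, 343, 232, 299, 193, 253 and 265 after VB-127, and 172, 241, 185, 213, 95.3 and 218 in controls. Vindeburnol replicate 4 stood apart with 779 TPM. In the same library the summed TPM of 8 RNAs made without a poly(A) tail, such as Rn7s1 and Rn7sk, was 18678, against 135 to 1073 in the other vindeburnol libraries, 358 to 1106 after VB-127 and 187 to 633 in controls. Their part in the tRNA sum was not tested.

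Of the 9 tRNAs that were tested, mt-Tm, which carries methionine, had the highest mean. It had 83.7, 0, 0, 414 and 40.2 TPM after vindeburnol, 41.6 to 115 TPM after VB-127 and 15.3 to 106 TPM in controls. mt-Tc (cysteine) and mt-Th (histidine) followed, with 0 to 112 TPM and 0 to 111 TPM over all libraries. The remaining 6, mt-Tv, mt-Tq, mt-Tw, mt-Tn, mt-Te and mt-Tp, reached at most 63.0 TPM in any library. mt-Tq (glutamine) was above 0 in 2 of 5 vindeburnol, 5 of 6 VB-127 and 1 of 6 control libraries, and its log2 difference between VB-127 and controls was 2.68 (95% interval 0.41 to 4.95, limma adjusted p = 0.470). mt-Tp (proline) was above 0 in 1 of 5 vindeburnol, 5 of 6 VB-127 and 3 of 6 control libraries. Its difference between vindeburnol and VB-127 was -3.01 (95% interval -5.39 to -0.63, limma adjusted p = 0.9999). mt-Tv (valine) was above 0 in 1 of 5 vindeburnol, 5 of 6 VB-127 and 4 of 6 control libraries, with a difference between the compounds of -2.90 (95% interval -5.74 to -0.06, limma adjusted p = 0.9999). mt-Tq and mt-Tp reached 1 TPM in at least 5 libraries only through the VB-127 group, where their means were highest. Their differences from VB-127 therefore carry no weight as tests. Differences of genes so often at 0 also depend on the pseudocount. Among the 6 tRNAs of 69 bases, 12 of 17 values above the smallest in a library were whole multiples of that smallest value, to within 0.01.

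The nuclear partners of these transcripts were also examined, as lists chosen with earlier results known. Of 75 nuclear subunits of the respiratory complexes and ATP synthase, none was called in any comparison. At an unadjusted p under 0.05, 1 was higher and 2 lower after vindeburnol than in controls, 6 were higher and 1 lower after VB-127 than in controls, and 5 were lower after vindeburnol than after VB-127. Those 6 are 8.0% of the 75, beside 9.67% of all genes higher after VB-127, and the 5 are 6.67%, beside 2.49% of all genes lower between the compounds. After vindeburnol the 1 higher is 1.33%, beside 6.95% of all genes, and the 2 lower are 2.67%, beside 1.22%. The 1 lower after VB-127 is 1.33%, beside 0.532%. The median log2 differences were 0.00, 0.06 and -0.04. Ndufc1, an accessory subunit of complex I, had 194 ± 41.1 TPM after vindeburnol and 235 ± 14.8 TPM in controls (log2 difference -0.30, limma adjusted p = 0.514). Ndufs8, an iron-sulphur subunit of that complex, had 229 ± 8.46 TPM after VB-127 and 201 ± 18.9 TPM in controls (log2 difference 0.19, limma adjusted p = 0.461).

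None of 30 genes for making, cutting and degrading mitochondrial RNA was called. At an unadjusted p under 0.05 none differed between vindeburnol and controls, and 1 was higher after VB-127 (3.33%, beside 9.67% of all genes). That gene was Ptcd1, an RNA-binding protein of mitochondria, with 12.1 ± 1.62 TPM after VB-127 and 9.91 ± 1.20 TPM in controls (log2 difference 0.27, adjusted p = 0.474). Of 12 genes that maintain mitochondrial DNA, none passed either threshold in any comparison, with median log2 differences of 0.06, 0.09 and 0.03. Of 8 regulators of mitochondrial biogenesis, 1 was higher after vindeburnol (12.5%, beside 6.95% of all genes) and 2 after VB-127 (25%, beside 9.67%) at an unadjusted p under 0.05, and none was called. Pprc1, a coactivator of the PGC-1 family, had 7.38 ± 1.88 TPM after vindeburnol, 7.88 ± 1.90 TPM after VB-127 and 5.21 ± 1.32 TPM in controls. Its log2 difference from controls was 0.42 after vindeburnol (adjusted p = 0.555) and 0.52 after VB-127 (adjusted p = 0.461).

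Of 78 nuclear proteins of the mitochondrial ribosome, which joins them to mt-Rnr1 and mt-Rnr2, 8 were higher and 1 lower after vindeburnol than in controls at an unadjusted p under 0.05. In VB-127 against controls 13 were higher and none lower, and in vindeburnol against VB-127 none was higher and 2 lower. Higher after VB-127 were thus 16.7% of the list beside 9.67% of all genes, higher after vindeburnol 10.3% beside 6.95%, and lower between the compounds 2.56% beside 2.49%. None was called, and the median log2 differences were 0.04, 0.09 and -0.05, beside 0.08, 0.11 and -0.03 over all genes. Mrpl58, a peptide release protein of the large subunit, had 89.7 ± 12.5 TPM after vindeburnol, 82.2 ± 4.92 TPM after VB-127 and 69.3 ± 7.80 TPM in controls. Of 25 other mitochondrial proteins none was called. At an unadjusted p under 0.05, 1 was lower after vindeburnol, and 2 were higher and 1 lower after VB-127, than in controls. The 1 lower after vindeburnol is 4% of the list, beside 1.22% of all genes. After VB-127 the 2 higher are 8%, beside 9.67%, and the 1 lower is 4%, beside 0.532%. Hspe1, the small mitochondrial chaperonin, was the lower gene in both, with 136 ± 13.4 TPM after vindeburnol, 142 ± 11.2 TPM after VB-127 and 157 ± 7.15 TPM in controls (adjusted p = 0.514 and 0.484).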

How the data were processed

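The authors deposited TPM values for 78298 genes in each of 17 libraries. Per the labels' protocols, poly(A) RNA was selected and the library kit was directional. Per the submitters' processing notes, reads were handled with STAR and Salmon on GRCm39 (mm39); versions, annotation and use of strand in counting are not given in the sources used here. A further deposited table was not used here. TPM holds no read depth, so no interval that needs depth is given, and precision is that of the spread among libraries.

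All tests used log2(TPM + 1), a pseudocount of 1, so fold changes are on that scale and understate changes of low genes. Genes with at least 1 TPM in at least 5 libraries were tested (16153). limma 3.58.1 in R 4.3.3 (eBayes, trend and robust) took in all 17 libraries, with group alone as the term. Its two-sided p was adjusted by Benjamini-Hochberg over the whole tested table, and a gene was called under 0.05. The fit was tested on simulated data. Shares of the TPM total are sums and carry no p. Near-identical nuclear copies were found with blastn 2.17.0 among GENCODE M21 transcripts (GRCm38), at 99% identity and 200 aligned bases or more. A pair was summed with weights by length, and the percent of a pair given to its gene was taken without those weights.

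The members and lists were chosen with earlier results of these data known. All 15 mRNAs and rRNAs are named, tRNAs if tested or with the highest or lowest mean, mt-Nd3 by library, and at most 3 genes of a list and comparison, those with the smallest p; Malat1, Meg3, Rn7s1 and Rn7sk fall under that rule. Gm28438 and Gm10222 were chosen after their values were seen, as were the summed pairs and the fit without control replicates 1 and 6. Alternatives covered the pseudocount (0.1 or 5), the filter (none or 5 TPM), 5 scalings, moderation, library weights, a Bc1 covariate, a replicate block, the groups fitted and each library left out in turn.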

Additional observations from a re-analysis of the deposited data

Results flagged for a closer look

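In 84 sets of values, each of 1 measure in 1 group, 3 held a library far from the others, where chance flags about 1 in 20 sets. The level of mt-Nd6 was 304 TPM (304.24) in vindeburnol replicate 1, against 173 to 209.9 TPM in the other vindeburnol libraries. The level of mt-Nd4l was 3668 TPM (3668.22) in the same library, against 1442 to 1902 TPM in the others. Summed with its nuclear copy Gm10222, mt-Nd4l in that library was 4689.9 TPM, inside the range of the others. The summed tRNA TPM was 779 (779.134) in vindeburnol replicate 4, against 45.5 to 257 in the others. That library also had the highest sum of RNAs made without a poly(A) tail, 18678 TPM, whose part in the tRNA sum was not tested.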

How the results depend on the processing

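No mitochondrial gene was called in any comparison under any of the at most 33 alternatives run for each. The mt-Nd3 difference kept its direction against controls in all of them, from -0.66 to -0.30 after vindeburnol (adjusted p 0.197 to 0.858) and from -0.47 to -0.22 after VB-127 (adjusted p 0.340 to 0.713). Leaving out each library in turn gave -0.66 to -0.44 and -0.42 to -0.27. Between the compounds it was 0.05 (0.0507322) with the copy summed in and negative otherwise. Of the other 14 mRNAs and rRNAs, the sign held in every alternative for mt-Rnr1, mt-Rnr2 and mt-Co3 after vindeburnol, for mt-Co2 alone after VB-127, and for those 4 between the compounds. The split of all genes at an unadjusted p under 0.05 depended on the scaling. For vindeburnol against controls 1122 were higher and 197 lower, against 729 and 673 with median-ratio scaling and 682 and 748 with quantile normalization. For VB-127 against controls these were 1562 and 86, 628 and 574, and 571 and 658. For vindeburnol against VB-127 they were 144 and 402, 312 and 382, and 358 and 367. The median of all genes, 0.08 and 0.11 against controls, became 0.00 and 0.01 with median-ratio scaling. Genes called over the whole table, none of them mitochondrial, numbered 0 for vindeburnol against controls and 1 with a pseudocount of 5, without Bc1 in the total, without Bc1 and members, without trend or robust moderation, or with library weights. For VB-127 against controls 1 was called. The number was 0 with a pseudocount of 0.1, no filter, a filter of 5 TPM, the Bc1 covariate or the replicate block, 3 with library weights, and 2 with the 2 groups alone or without control replicates 1 and 6. Over libraries left out in turn it ran from 0 to 1. The cause was not tested. The difference in mitochondrial share ran over libraries left out in turn from -1.15 to 0.09 percentage points after vindeburnol, from -0.89 to 0.34 after VB-127 and from -0.79 to 0.04 between the compounds, around -0.56, -0.31 and -0.25. It turned positive against controls without control replicate 6, at 0.09 and 0.34, and without VB-127 replicate 2, at 0.16. Between the compounds it turned positive without vindeburnol replicate 3 or 5 or VB-127 replicate 5, at 0.02, 0.04 and 0.02. Replicate numbers did not pair the libraries: same-numbered libraries had correlations of -0.20 to 0.11 over 16 pairs, 1 of them over 0.1, and 1 library matched its own number best. With the replicate number as a block, 0 mitochondrial genes were called in each comparison, and mt-Nd3 differed by -0.51, -0.35 and -0.16. Unknown depth limits the tRNAs, mt-Nd6 and the division of reads between a gene and its copy.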
